A study of Mus musculus with 10 samples.

Results

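The heat shock protein and DnaJ families were followed across 10 RNA sequencing libraries of mouse cortex, as 70 of the 52636 genes in the table. Members were chosen by symbol alone, as heat shock proteins of the Hspa, Hspb, Hspd, Hspe, Hsph and Hsp90 series and DnaJ proteins of classes A, B and C, with pseudogenes left out. They comprised 3 Hsp90, 3 Hsp110, 11 Hsp70, 2 chaperonin, 8 small heat shock protein, 4 DnajA, 13 DnajB and 26 DnajC genes. All tissue came from S1BF, the whisker barrel field of primary somatosensory cortex, of C57BL/6 mice at postnatal day 17. The cKO group (n = 4) carried Nex-cre with the conditional knockout of Rxra, which encodes the nuclear receptor RXR alpha. The Hetero group (n = 2) carried Nex-cre with the heterozygous conditional allele, and the Loxp group (n = 4) carried floxed Rxra (Rxratm1Krc/J) without Cre. Nex-cre places Cre at the Neurod6 locus and recombines in excitatory cortical neurons, so other cells of the tissue keep Rxra. Because the Loxp group carries no Cre, the loss of Rxra and the presence of Cre cannot be told apart against it.

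Heat shock proteins are chaperones that bind unfolded or partly folded proteins. Hsp70 proteins take up a client when a DnaJ protein delivers it and speeds ATP cleavage, Hsp110 proteins help release the nucleotide, Hsp90 proteins act on late-folding clients such as kinases and nuclear receptors, chaperonins fold proteins inside a chamber, and small heat shock proteins hold aggregating proteins without ATP. In neurons the constitutive members are abundant and some DnaJ proteins work at synaptic vesicles, while the inducible Hsp70 genes are known for low levels without stress.

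No member passed an adjusted p of 0.05 in any comparison of the 3 groups, and none of the 18455 tested genes did (edgeR quasi-likelihood test, Benjamini-Hochberg adjusted). The member with the smallest p in both comparisons with Loxp was Dnajb5, which was lower in cKO and in Hetero. DESeq2 called 2 genes between cKO and Loxp, 17 between Hetero and Loxp and 3 between cKO and Hetero, limma-voom called 0 in each, and neither called a member. Hspa5 and Hsp90b1, chaperones of the endoplasmic reticulum (ER), were below their 10-library means in cKO 1, 2 and 4, in Hetero 1 and in the library labelled Loxp 4, and above them in cKO 3 and in Loxp 1 to 3. In Hetero 2, Hsp90b1 was below its mean and Hspa5 close to it.

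Library totals were 19332990 to 26086337 counts, and members took 0.781% to 0.919% of them. Rxra averaged 30.7 ± 1.74 CPM in cKO, 24.8 ± 2.26 CPM in Hetero and 26.5 ± 4.43 CPM in Loxp (SD, n = 4, 2 and 4), where CPM is the count scaled to the library total and serves to compare libraries. Counts over the whole gene do not check a deletion of some of its exons. Neurod6, whose coding sequence Cre replaces on the Nex-cre allele, averaged 29.5 ± 7.29 CPM in cKO, 34.2 ± 0.278 CPM in Hetero and 54.8 ± 14.01 CPM in Loxp. The library labelled Loxp 4 had 34.9 CPM of Neurod6, within the range of the Cre libraries. The member counts and the values of some named members against Loxp are therefore also given without it. Small fold changes of other members against Loxp may change sign without it. Of the choroid plexus markers, Hetero 2 had a summed 736 CPM and the other 9 libraries 2.95 to 22.5 CPM. Excitatory neuron markers were present in every library, at a summed 8876 to 10359.5 CPM. The tissue is a mixture of cells, so fewer cells of a type and less RNA per cell cannot be told apart. Whether each library came from a separate animal is not said in the labels, and p-values measure the spread between these libraries.

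The promoter windows of 6 members, from 250 bases before to 50 after the start in RefSeq GRCm38.p6, are shown for the ER and heat-inducible groups described next, which are known to share control elements. Windows were found for 57 of the 70 members (74 windows, some genes having several starts). The other 13, among them Hsp90ab1, Hspa8 and Hsp90aa1, had no window and were not searched for elements. A heat shock element of 3 alternating units of GAA and TTC, each 2 bases apart and beginning with either unit, occurred on either strand in 8.11% of the member windows and in 0.603% of all 32851 promoter windows. The member genes that held it were Hspd1, Hspe1, Hsph1 and Dnajb6. Counted by gene, this was 4 of 57 members, against 179 of 27025 genes over all promoters. A window of Hspd1 overlaps that of Hspe1, the windows of Hsph1 overlap each other, and so do those of Dnajb6. The same element can therefore be counted in more than 1 window. The ER stress element, CCAAT and CCACG with 9 bases of any kind between them, occurred on either strand in 4.05% of the member windows, those of Hspa5, Hsp90b1 and Dnajc3, and in 0.119% of all windows. The shorter repeat GAANNTTC, which the longer forms contain, occurred in 20.3% of member windows and 7.86% of all windows. TTCNNGAA, likewise contained in the longer forms, occurred in 10.8% of member windows and 8.52% of all windows. The cyclic AMP response element TGACGTCA occurred in 1.35% of member windows and 1.79% of all windows. A match describes the letters of a window and does not show that a factor binds there. Capitals mark the ER stress element in Hspa5 (chr2:34771840-34772139, plus strand), Hsp90b1 (chr10:86705395-86705694, minus strand, with a copy on each strand) and Dnajc3 (chr14:118937682-118937981, plus strand). They mark overlapping repeats of the long heat shock element in Hspe1 (chr1:55087898-55088197, plus strand) and the shorter repeat GAANNTTC in Hspa1a (chr17:34972107-34972406, minus strand) and Hspa1b (chr17:34959189-34959488, minus strand).
Hspa5: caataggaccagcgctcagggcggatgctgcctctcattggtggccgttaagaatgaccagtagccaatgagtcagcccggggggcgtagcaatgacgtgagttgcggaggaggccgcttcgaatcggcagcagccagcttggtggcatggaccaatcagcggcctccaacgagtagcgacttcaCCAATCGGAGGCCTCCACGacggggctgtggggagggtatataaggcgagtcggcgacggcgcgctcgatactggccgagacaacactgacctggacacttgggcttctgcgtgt
Hsp90b1: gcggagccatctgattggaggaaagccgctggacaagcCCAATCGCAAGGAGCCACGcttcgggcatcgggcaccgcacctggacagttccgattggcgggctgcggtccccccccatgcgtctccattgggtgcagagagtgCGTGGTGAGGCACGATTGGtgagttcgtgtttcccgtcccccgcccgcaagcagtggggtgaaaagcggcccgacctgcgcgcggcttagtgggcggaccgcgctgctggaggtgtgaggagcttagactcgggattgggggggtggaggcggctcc
Dnajc3: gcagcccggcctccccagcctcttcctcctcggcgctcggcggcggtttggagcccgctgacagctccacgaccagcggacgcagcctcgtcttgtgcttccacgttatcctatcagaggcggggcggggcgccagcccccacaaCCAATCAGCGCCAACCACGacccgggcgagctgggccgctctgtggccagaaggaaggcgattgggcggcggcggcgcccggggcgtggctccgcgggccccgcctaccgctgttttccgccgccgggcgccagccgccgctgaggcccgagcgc
Hspe1: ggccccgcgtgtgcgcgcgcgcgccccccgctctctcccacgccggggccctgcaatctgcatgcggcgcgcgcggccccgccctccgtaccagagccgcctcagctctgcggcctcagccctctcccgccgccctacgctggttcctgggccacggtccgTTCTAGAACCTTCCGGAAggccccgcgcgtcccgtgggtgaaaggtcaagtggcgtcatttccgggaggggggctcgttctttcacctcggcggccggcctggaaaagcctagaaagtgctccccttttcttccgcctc
Hspa1a: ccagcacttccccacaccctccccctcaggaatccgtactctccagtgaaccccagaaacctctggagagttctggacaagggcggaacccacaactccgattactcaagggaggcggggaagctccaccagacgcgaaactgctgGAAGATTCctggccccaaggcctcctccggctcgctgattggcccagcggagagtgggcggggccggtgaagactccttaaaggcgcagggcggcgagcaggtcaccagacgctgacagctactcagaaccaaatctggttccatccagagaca
Hspa1b: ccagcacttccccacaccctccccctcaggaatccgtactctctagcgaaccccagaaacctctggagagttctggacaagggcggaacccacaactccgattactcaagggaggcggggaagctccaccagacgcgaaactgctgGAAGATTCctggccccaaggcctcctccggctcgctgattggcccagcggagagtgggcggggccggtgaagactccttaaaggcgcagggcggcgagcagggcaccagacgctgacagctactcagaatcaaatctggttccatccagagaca
The Hspa1a and Hspa1b windows shared 296 of 300 bases. The Hspe1 window overlaps that of Hspd1, since the chaperonin pair is transcribed in opposite directions from neighbouring starts.

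Levels of different genes were compared in the deposited FPKM, which is per length. The Hsp90 gene Hsp90ab1, a constitutive cytosolic chaperone, had the highest level, at 511, 478, 539 and 488 FPKM in cKO libraries 1 to 4, 489.5 and 506 FPKM in Hetero libraries 1 and 2, and 574, 429, 544 and 476 FPKM in the libraries labelled Loxp 1 to 4. Hspa8, the constitutive Hsc70, followed at a mean of 308 FPKM over the 10 libraries, and Hsp90aa1, the stress-responsive cytosolic Hsp90, at 214 FPKM. These 3 genes made up 49.9% of the summed FPKM of the 70 members. The family spanned a wide range: 3 members had a mean of at least 100 FPKM, 32 lay between 10 and 100, 26 between 1 and 10, and 9 below 1. The 11 Hsp70 genes ran from Hspa8 to Hspa1l, a testis-rich gene at 0.647 FPKM. The inducible Hsp70 genes Hspa1a and Hspa1b averaged 1.71 and 1.11 FPKM. The 8 small heat shock protein genes of the Hspb series held 1.02% of the summed FPKM of the 70 members, with Hspb1 (Hsp27) at a mean of 5.26 FPKM. Small heat shock proteins under other symbols were not counted. The 3 tested members with the lowest FPKM were Hspb7 (0.146 FPKM), Dnajb13 (0.202 FPKM), a gene of motile cilia and sperm tails, and Hspa1l. Hspb9 (1 to 14 counts per library), Dnajb7 (0 to 5), Dnajb8 (0 to 3) and Dnajc22 (0 to 1) did not pass the filter on low counts and were not tested.

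**Figure D1:**
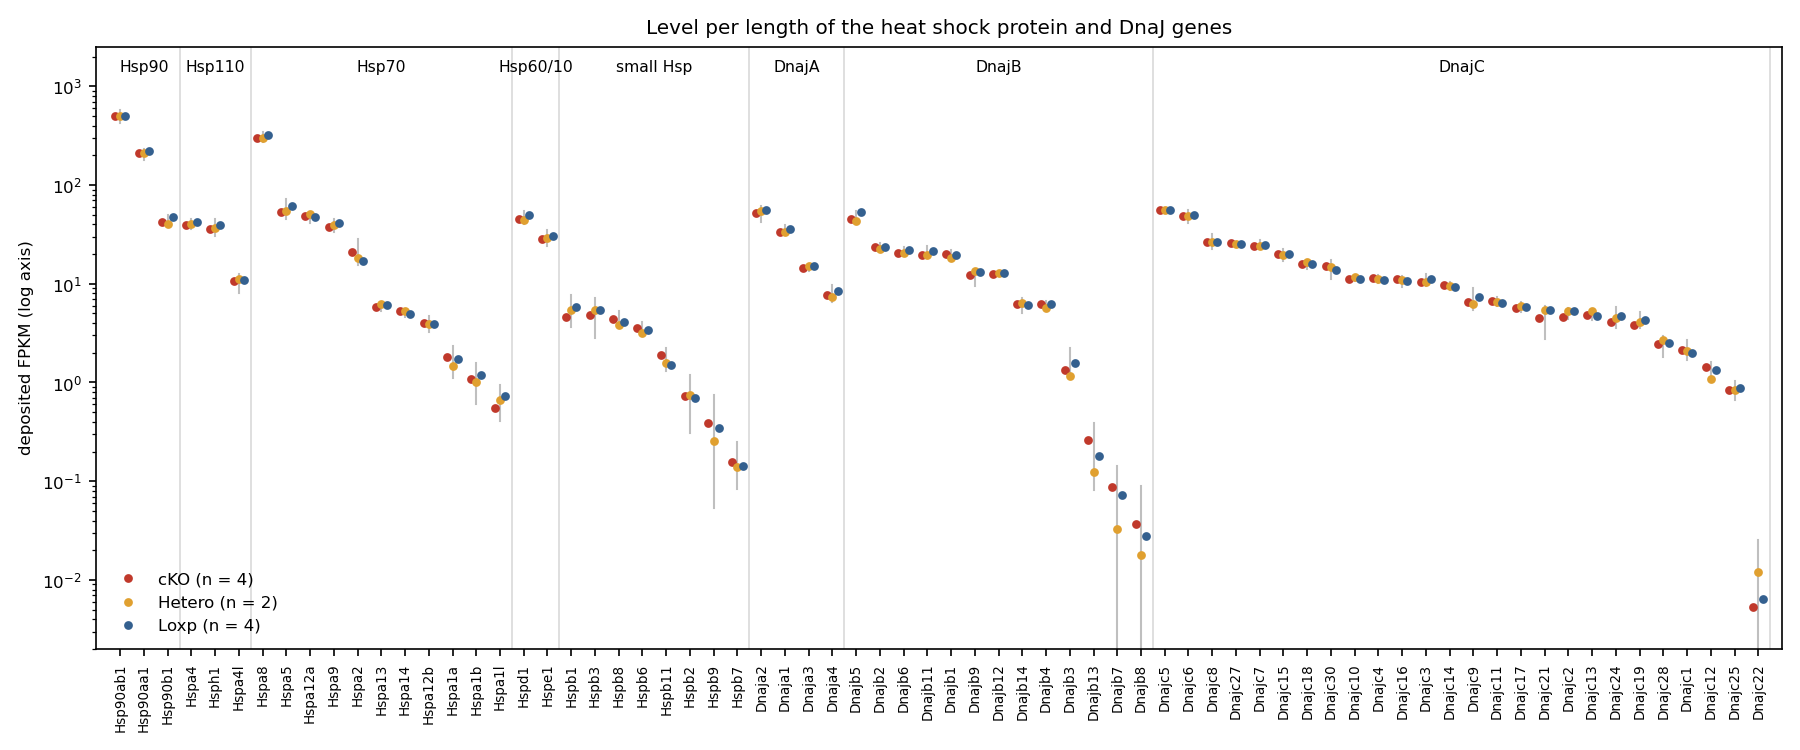
Deposited FPKM (log axis) of the 70 members, grouped by role and ordered by level. Points are group means of cKO, Hetero and Loxp, grey lines run from the lowest to the highest library, and a line that reaches the axis starts at a listed 0. The group means of a gene lie close together while genes range from Hsp90ab1 at a mean of 503 FPKM to genes below 1 FPKM.

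The comparison of cKO with Loxp sets tissue with Nex-cre and the Rxra knockout against floxed tissue without Cre. Of the 66 tested members, 39 had a log2 fold change below 0, against 49.9% of all genes tested, and the median was −0.04 for the members and 0.0003 for all genes. The number called was 0 members, with a background of 0% of all genes (edgeR, 466 genes at an unadjusted p under 0.05, smallest adjusted p of a member 0.9998). DESeq2 and limma-voom also called 0 members. At an unadjusted p under 0.05, 1 member, Dnajb5, was lower and 0 were higher, against 1.06% of all genes lower, 1.46% higher and 2.53% in all, so the member count is near the background. The values of cKO and Loxp overlapped for every tested member, where 1.54% of all genes had no overlap (0.721% lower and 0.818% higher in cKO). The number of members below 0 depended on single libraries. Without cKO 2 it was 32 of 66 and the median was 0.01. It was 45 of 66 without cKO 1 (median −0.05) and 45 without cKO 3 (median −0.06). Without the library labelled Loxp 4 it was 38 of 66 and the median was −0.02. The members at an unadjusted p under 0.05 numbered 1 to 6 with each library left out. The 6 were found without the library labelled Loxp 4, where 650 of 18313 genes were (Dnaja1, Hspa5, Hsp90b1, Dnajb11, Hspe1 and Dnajc2, all lower in cKO). Without cKO 3 there were 4, with Dnajb5, Hspa5 and Hsp90b1 lower and Hspa2 higher, where 599 of 18353 genes were.

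**Figure D2:**
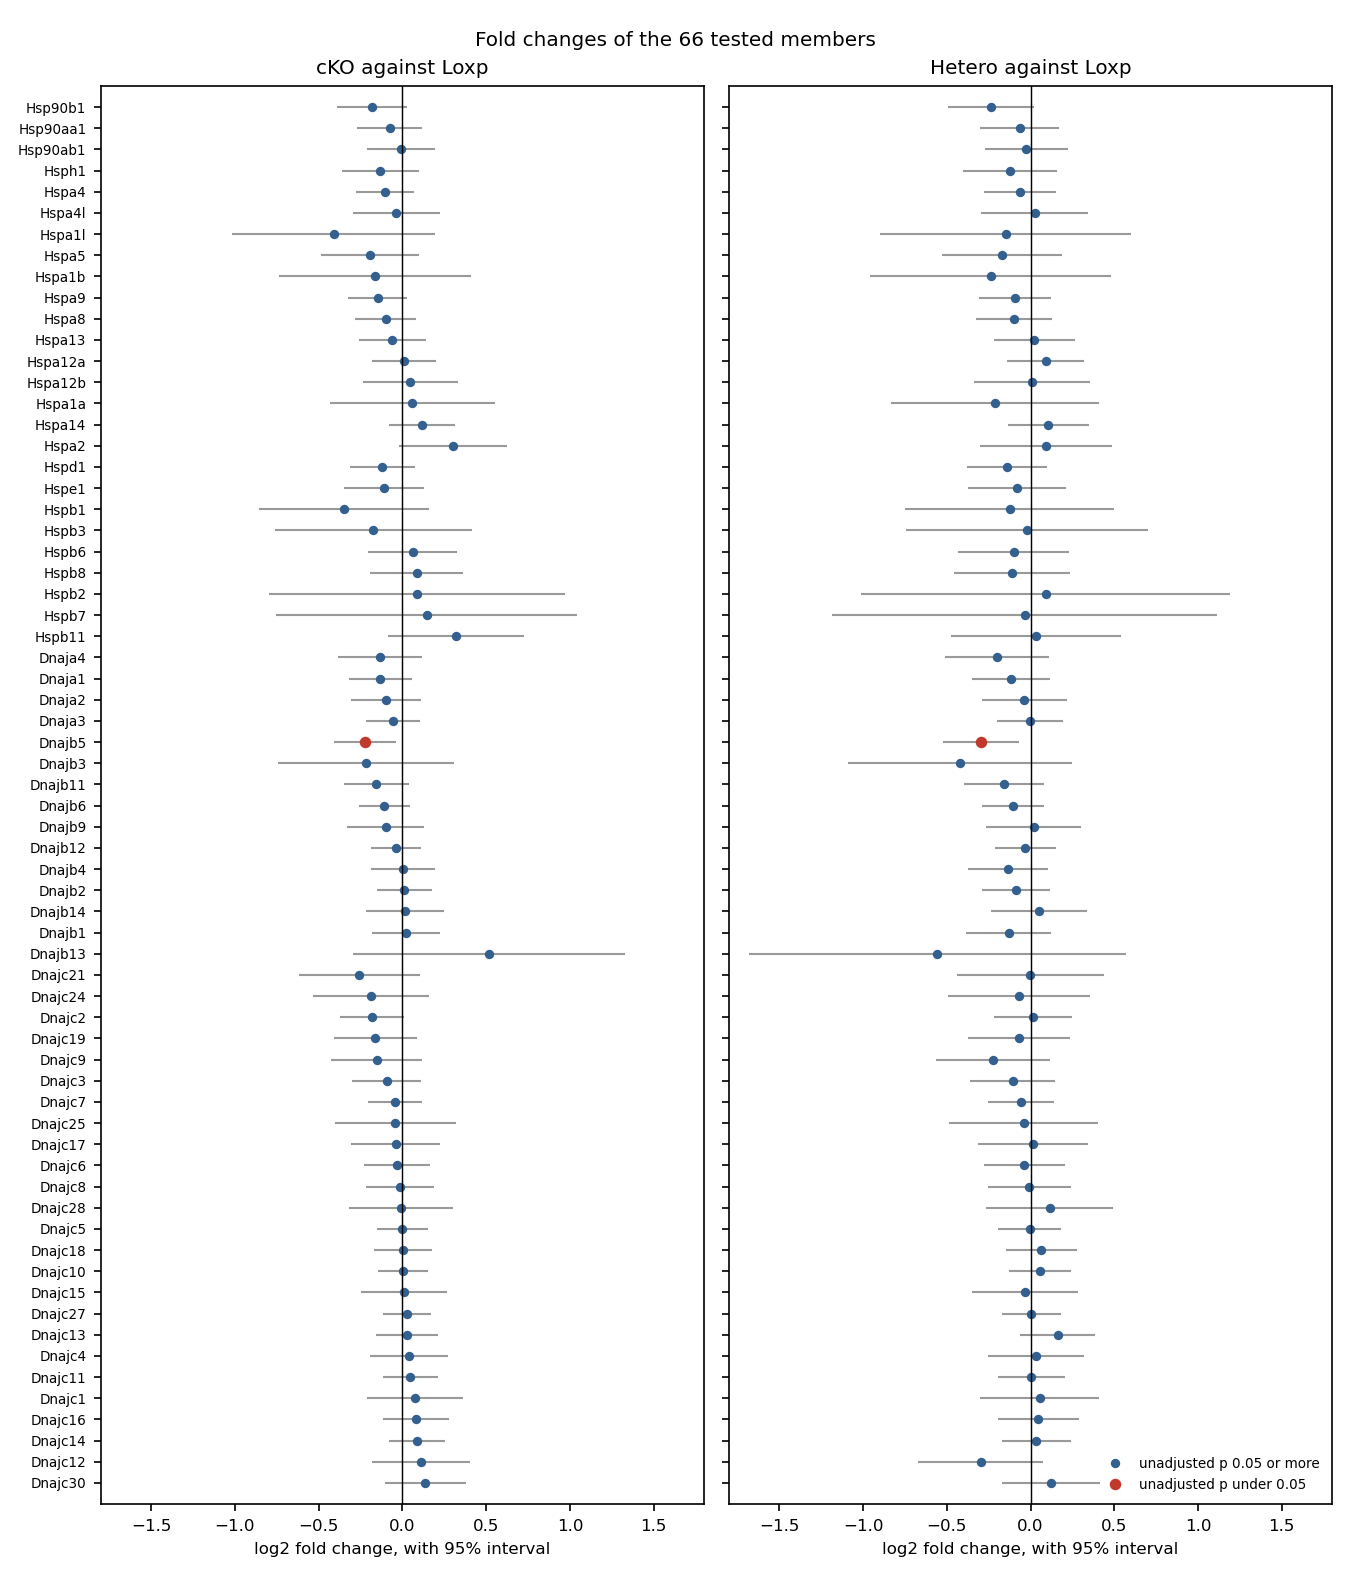
Log2 fold change (horizontal axis) of the 66 tested members, in rows by role, for cKO against Loxp (left) and Hetero against Loxp (right). Points are edgeR estimates, lines their 95% intervals, and red points have an unadjusted p under 0.05. Dnajb5 is red in both panels, at −0.22 and −0.29.

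Dnajb5 encodes a J-domain partner of Hsp70 that is known from mouse heart to bind the histone deacetylase HDAC4 (chromosome 4, 42949814 to 42959425, plus strand, GRCm38). It stood at 239, 275, 312 and 258 CPM in cKO libraries 1 to 4, 264 and 252 CPM in Hetero libraries 1 and 2, and 323, 302, 314 and 327 CPM in the libraries labelled Loxp 1 to 4. Both Hetero libraries and cKO 1, 2 and 4 lay below the lowest Loxp library, and cKO 3 lay within the Loxp range. The log2 fold change was −0.22 in cKO against Loxp (SE 0.0852, 95% interval −0.41 to −0.04, edgeR unadjusted p = 0.0208, adjusted p = 0.9998). It was −0.29 in Hetero against Loxp (SE 0.106, edgeR unadjusted p = 0.015, adjusted p = 0.9998), a comparison with the same Loxp libraries. Between cKO and Hetero the log2 fold change was 0.07 (95% interval −0.15 to 0.30). The unadjusted p in cKO against Loxp was 0.0549 without the library labelled Loxp 4 (log2 fold change −0.20), 0.0812 without cKO 1 and 0.0565 without cKO 4. It was 0.00371 without cKO 3 (log2 fold change −0.29). Without Hetero 2, the library with choroid plexus transcripts, it was 0.102 in Hetero against Loxp (log2 fold change −0.26). A list of 12 genes induced by neuronal activity, including Fos, Arc and Egr2, summed to 1352 to 1868 CPM in cKO, 1195 and 1410 CPM in Hetero and 1629 to 3089 CPM in Loxp, and all 12 had a log2 fold change below 0 in both comparisons with Loxp. Their part in the Dnajb5 values was not tested.

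**Figure D3:**
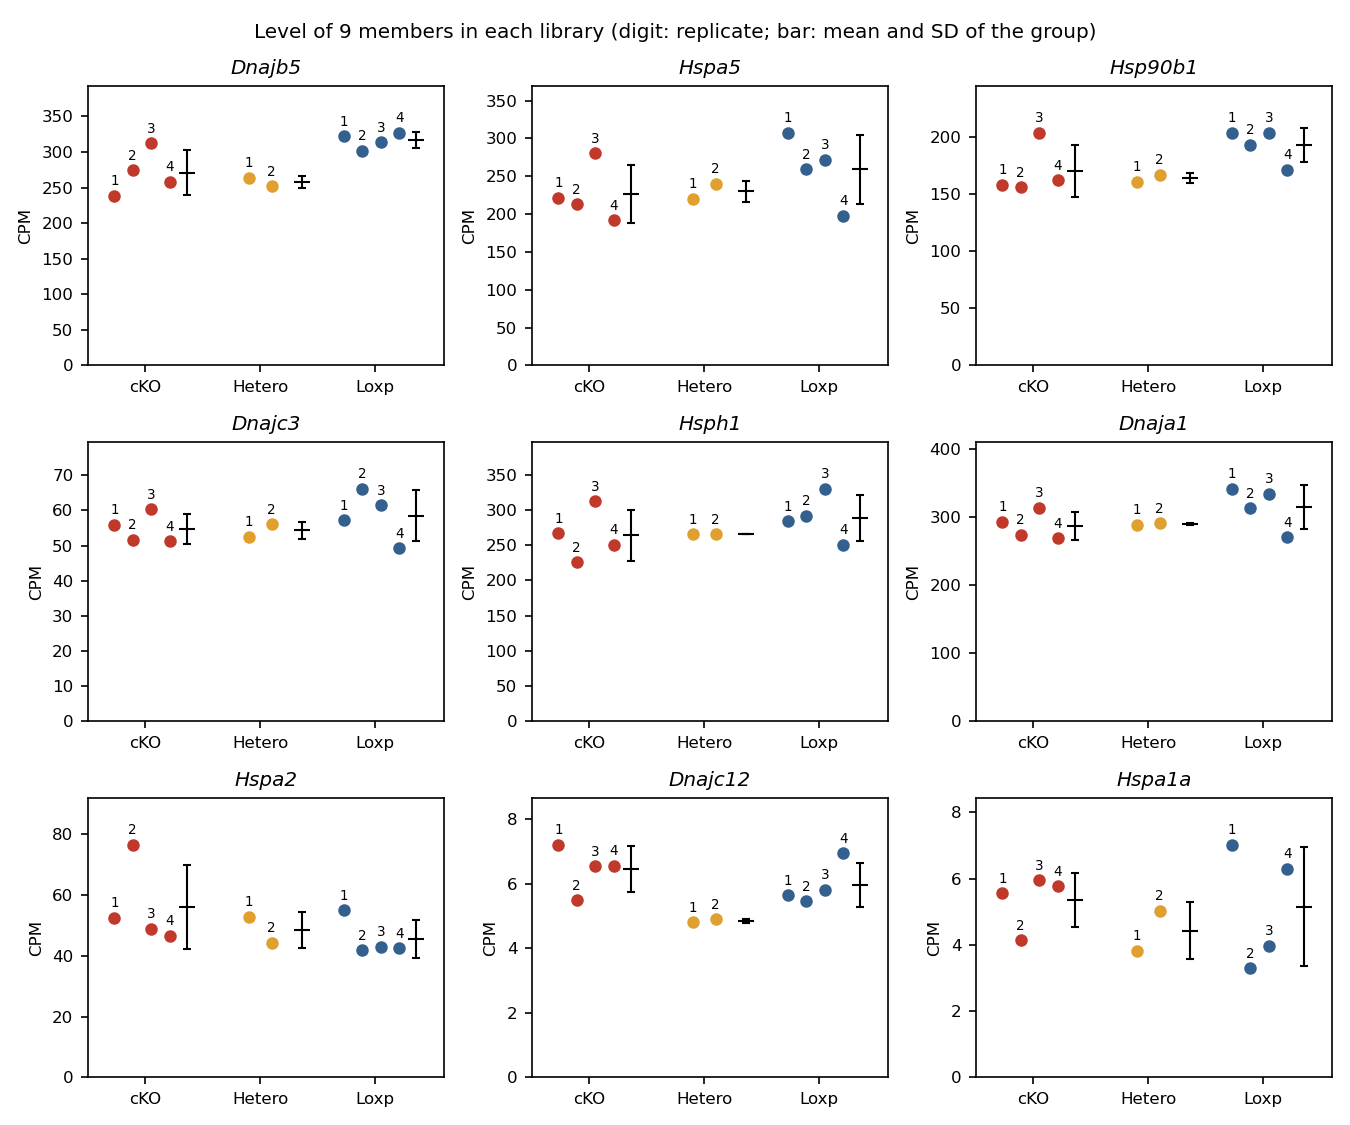
CPM of 9 members in each library, by group, with the vertical axes starting at 0. Digits give the replicate and black bars the group mean ± SD. For Dnajb5, 3 cKO libraries and both Hetero libraries lie below all Loxp libraries, and for Hspa5 and Hsp90b1 cKO 3 lies with Loxp 1 to 3 while Loxp 4 is the lowest of its group.

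Heat-inducible members, the genes that heat shock factor 1 is known to switch on, had medians a little below 0. Of these 11, 9 had a log2 fold change below 0 in cKO against Loxp (median −0.11, range −0.35 to 0.06) and 11 in Hetero against Loxp (median −0.12), against 49.9% and 51.8% of all genes. At an unadjusted p under 0.05 there were 0 in either comparison, against 2.53% and 2.54% of all genes. Both comparisons use the same Loxp libraries, and Loxp 1 had the highest CPM of all libraries for 8 of the 11. In cKO against Hetero, 6 of 11 were below 0 (median −0.0007), against 47.5% of all genes. Hsph1, an Hsp110 nucleotide exchange factor, had 267, 226, 312 and 251 CPM in cKO libraries 1 to 4, 266 and 266 CPM in Hetero libraries 1 and 2, and 284, 291, 330.2 and 250.4 CPM in the libraries labelled Loxp 1 to 4. The 2 Hetero libraries and 3 of the cKO libraries lay below Loxp 1 to 3, cKO 3 lay above Loxp 2, and the groups overlapped. Its log2 fold change was −0.13 in cKO against Loxp (SE 0.106, 95% interval −0.36 to 0.10). It was −0.22 without cKO 3, −0.06 without cKO 2 and −0.06 without Loxp 3.

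Dnaja1, a class A DnaJ partner of Hspa8, had 293, 274, 314 and 268 CPM in cKO libraries 1 to 4, 289 and 291 CPM in Hetero libraries 1 and 2, and 341, 312, 334 and 269.7 CPM in the libraries labelled Loxp 1 to 4. Loxp 1 and 3 were the highest and cKO 4 and the library labelled Loxp 4 the lowest, and the log2 fold change was −0.13 in cKO against Loxp (95% interval −0.32 to 0.06). Dnajb1 (Hsp40), the main DnaJ partner of the inducible Hsp70, ran at 62.7 to 66.8 CPM in cKO, 54.4 to 62.0 CPM in Hetero and 55.7 to 71.1 CPM in Loxp, with log2 fold changes of 0.02 in cKO against Loxp and −0.13 in Hetero against Loxp. Hspb1 ran at 3.78 to 6.11 CPM in cKO, 5.16 to 5.98 CPM in Hetero and 3.87 to 7.95 CPM in Loxp, and its log2 fold change of −0.35 in cKO against Loxp had an interval of −0.86 to 0.16. With each library left out, its edgeR unadjusted p was under 0.05 only without Loxp 2 (0.0378, log2 fold change −0.51). For the abundant members the intervals held 0. Hsp90ab1 had a log2 fold change of −0.01 in cKO against Loxp (95% interval −0.21 to 0.20), Hspa8 of −0.10 (−0.28 to 0.08) and Hsp90aa1 of −0.08 (−0.27 to 0.12).

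Hspa1a and Hspa1b lie on chromosome 17 and share 99.2% of bases over 74.0% of the Hspa1a transcript, so reads may be split or lost between them. Their summed level was 9.66, 6.65, 8.99 and 8.24 CPM in cKO libraries 1 to 4, 6.33 and 8.27 CPM in Hetero libraries 1 and 2, and 10.8, 5.02, 7.59 and 10.7 CPM in the libraries labelled Loxp 1 to 4. The Loxp libraries alone spanned the values of all others. The log2 fold change of the sum was −0.03 in cKO against Loxp (edgeR unadjusted p = 0.907) and −0.22 in Hetero against Loxp (edgeR unadjusted p = 0.422).

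Among the ER members, Hspa5 and Hsp90b1 varied between libraries of the same group. Of the 10 ER members, 7 had a log2 fold change below 0 in cKO against Loxp (median −0.08) and 5 in Hetero against Loxp (median −0.01), against 49.9% and 51.8% of all genes. Hspa5 (BiP), the ER Hsp70, had 222, 213, 281 and 192 CPM in cKO libraries 1 to 4, 220.3 and 239.9 CPM in Hetero libraries 1 and 2, and 308, 259, 272 and 198 CPM in the libraries labelled Loxp 1 to 4. Its log2 fold change was −0.19 in cKO against Loxp (SE 0.135, 95% interval −0.48 to 0.10, edgeR unadjusted p = 0.175). The cKO 3 library was the highest of its group and the second highest of all 10, and the library labelled Loxp 4 was the lowest of its group.

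Hsp90b1 (Grp94), the ER Hsp90, had 158, 156, 204 and 162 CPM in cKO libraries 1 to 4, 161 and 167 CPM in Hetero libraries 1 and 2, and 203, 193, 204 and 171 CPM in the libraries labelled Loxp 1 to 4. The same 2 libraries stood out, and both Hetero libraries lay below all Loxp libraries. Its log2 fold change was −0.18 in cKO against Loxp (SE 0.0959, edgeR unadjusted p = 0.0806). In the comparison of Hetero with Loxp it was −0.23 (SE 0.119, edgeR unadjusted p = 0.0687). Dnajb11 (ERdj3), a DnaJ partner of Hspa5, had 62.7, 61.8, 67.2 and 62.3 CPM in cKO libraries 1 to 4, 64.7 and 62.1 CPM in Hetero libraries 1 and 2, and 79.6, 68.2, 75.4 and 59.7 CPM in the libraries labelled Loxp 1 to 4. It was highest in Loxp 1 and 3 and lowest in the library labelled Loxp 4, with a log2 fold change of −0.16 in cKO against Loxp (95% interval −0.35 to 0.04). Dnajc3 (p58IPK), which restrains the ER stress kinase PERK, ran at 51.2 to 60.4 CPM in cKO, 52.6 to 56.1 CPM in Hetero and 49.2 to 66.2 CPM in Loxp, and the library labelled Loxp 4 was the lowest of all 10. Hspa5, Hsp90b1 and Dnajc3 are the members whose promoter windows above hold the ER stress element.

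These ER values turned on single libraries. Without the library labelled Loxp 4, cKO stood against Loxp at a log2 fold change of −0.30 for Hspa5 (edgeR unadjusted p = 0.0296, adjusted p = 0.993) and −0.23 for Hsp90b1 (edgeR unadjusted p = 0.0388). Without cKO 3 it was −0.31 for Hspa5 (edgeR unadjusted p = 0.033, adjusted p = 0.999) and −0.27 for Hsp90b1 (edgeR unadjusted p = 0.00641). In Hetero against Loxp, Hsp90b1 was at −0.28 without the library labelled Loxp 4 (edgeR unadjusted p = 0.0366). Without that library, Dnajb11 was at −0.22 in cKO against Loxp (edgeR unadjusted p = 0.017) and −0.22 in Hetero against Loxp (edgeR unadjusted p = 0.041). With each library left out, the edgeR unadjusted p of Dnajb11 was under 0.05 only there. Without Loxp 1, cKO against Loxp was −0.10 for Hspa5 and −0.15 for Hsp90b1. Of the remaining ER members, Dnajb9 (ERdj4), an unfolded protein response target, was lowest in cKO 2, at 24.1 CPM against 31.7 to 34.8 CPM in the other 9 libraries. Hspa13 ran at 31.4 to 37.6 CPM in cKO, 35.8 to 38.0 CPM in Hetero and 31.1 to 38.4 CPM in Loxp, and Dnajc10 (ERdj5), an ER disulphide reductase, at 55.1 to 57.4 CPM in cKO, 54.4 to 62.0 CPM in Hetero and 54.3 to 56.9 CPM in Loxp. The ER membrane members Dnajb12 and Dnajb14 had log2 fold changes of −0.04 and 0.01 in cKO against Loxp, and Dnajc1 (ERdj1) of 0.08.

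Mitochondrial members differed by small amounts, with 5 of 8 below 0 in cKO against Loxp (median −0.08) and 6 of 8 in Hetero against Loxp (median −0.05). Hspa9 (mortalin), the matrix Hsp70, had 158, 133, 156 and 148 CPM in cKO libraries 1 to 4, 147 and 162 CPM in Hetero libraries 1 and 2, and 177, 167, 164 and 151 CPM in the libraries labelled Loxp 1 to 4. Its log2 fold change was −0.15 in cKO against Loxp (SE 0.0818, edgeR unadjusted p = 0.0913), and Loxp 1 to 3 lay above all Cre libraries. The chaperonin Hspd1 (Hsp60) ran at 106 to 133 CPM in cKO, 115 to 123 CPM in Hetero and 115 to 145 CPM in Loxp and its lid Hspe1 (Hsp10) at 38.1 to 44.8 CPM in cKO, 40.8 to 45.4 CPM in Hetero and 35.6 to 52.2 CPM in Loxp. Their log2 fold changes in cKO against Loxp were −0.12 (95% interval −0.31 to 0.07) and −0.11 (−0.35 to 0.13). Hspd1 was at −0.06 without cKO 4 and −0.07 without Loxp 1. Hspe1 was at −0.21 without the library labelled Loxp 4 (edgeR unadjusted p = 0.0391), −0.04 without Loxp 1, −0.07 without Loxp 2 and −0.06 without cKO 4. Dnaja3 (Tid1), the DnaJ partner of Hspa9, had a log2 fold change of −0.06 in cKO against Loxp. Dnajc19 and Dnajc15, relatives in the inner membrane import motor, had −0.16 and 0.01, Dnajc11 of the outer membrane 0.05, and Dnajc30 0.14.

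Of the 3 synaptic and endocytic members, 2 had a log2 fold change below 0 in cKO against Loxp (range −0.03 to 0.03) and 2 in Hetero against Loxp (range −0.04 to 0.16). Dnajc5, the cysteine string protein of synaptic vesicles, had 403, 388, 404 and 375 CPM in cKO libraries 1 to 4, 378 and 406 CPM in Hetero libraries 1 and 2, and 371, 409.9, 412 and 379.6 CPM in the libraries labelled Loxp 1 to 4. No group stood apart, and the log2 fold change was −0.002 in cKO against Loxp (95% interval −0.15 to 0.15). Dnajc6 (auxilin), which uncoats clathrin vesicles with Hspa8, ran at 248 to 330.4 CPM in cKO, 279.8 to 294 CPM in Hetero and 279 to 323 CPM in Loxp, with a log2 fold change of −0.03 (−0.23 to 0.17). Dnajc13 (RME-8), an endosomal DnaJ protein, had a log2 fold change of 0.03 in cKO against Loxp and 0.16 in Hetero against Loxp, where both Hetero libraries lay above all Loxp libraries.

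Among the remaining members, those with the smallest p of their role in cKO against Loxp follow. Hspa2, an Hsp70 best known from the testis, had 52.5, 76.5, 48.8 and 46.6 CPM in cKO libraries 1 to 4, 52.7 and 44.3 CPM in Hetero libraries 1 and 2, and 55.0, 41.7, 42.9 and 42.5 CPM in the libraries labelled Loxp 1 to 4. The cKO 2 library was the highest by a wide margin and Loxp 1 was the second highest. Its log2 fold change was 0.30 (SE 0.149, 95% interval −0.02 to 0.62, edgeR unadjusted p = 0.0638). It was 0.12 without cKO 2 (edgeR unadjusted p = 0.284) and 0.40 without Loxp 1 (edgeR unadjusted p = 0.0222). Dnajc2 (MPP11), a ribosome-associated DnaJ protein, had a log2 fold change of −0.18 (edgeR unadjusted p = 0.061), Hspb11 (Ift25), an intraflagellar transport protein, of 0.32 (edgeR unadjusted p = 0.115), and Hspa4, an Hsp110, of −0.10 (edgeR unadjusted p = 0.225). Without Loxp 3, Hspb11 was at 0.48 (edgeR unadjusted p = 0.0251) and Hspa4 at −0.06, and without cKO 4 Hspa4 was at −0.06. Dnajc2 was at −0.24 without the library labelled Loxp 4 (edgeR unadjusted p = 0.014) and at −0.14 without Loxp 1. The low members had wide intervals, which ran from −1.02 to 0.20 for Hspa1l and from −0.75 to 1.04 for Hspb7. With each library left out, the edgeR unadjusted p of Hspa1l was under 0.05 only without cKO 1 (0.0482, log2 fold change −0.64).

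In Hetero against Loxp, 43 of 66 members had a log2 fold change below 0, against 51.8% of all genes tested, with a median of −0.04 for members and −0.01 for all genes. The number called was 0 members and 0% of all genes (edgeR, 468 genes at an unadjusted p under 0.05), and DESeq2 and limma-voom also called 0 members. At an unadjusted p under 0.05, 1 member, Dnajb5, was lower and 0 were higher, against 1.25% of all genes lower, 1.28% higher and 2.54% in all. With each library left out the count was 0 to 3 (3 without the library labelled Loxp 4, where 472 of 18313 genes were, and 0 without Hetero 2, where 316 of 19357 genes were). Values of the groups did not overlap for 5 members that were lower in Hetero, Dnajb5, Hsp90b1, Dnajc9, Dnajc12 and Dnajb3, and for 1 that was higher, Dnajc13. The background was 11.4% of all genes, 5.77% lower and 5.64% higher, so the 5 lower members are near the background. Dnajc9, a DnaJ protein that also binds histones, ran at 13.1 to 17.5 CPM in cKO, 14.9 to 15.2 CPM in Hetero and 15.3 to 21.8 CPM in Loxp. Dnaja4 had the smallest p of its class, at a log2 fold change of −0.20 (edgeR unadjusted p = 0.182), and Hspb8, a partner of Bag3, had −0.11 (edgeR unadjusted p = 0.508). Without Hetero 1 they were at −0.12 for Dnaja4 and −0.02 for Hspb8, without Loxp 3 Dnaja4 was at −0.12, and without Hetero 2 Hspb8 was at −0.20. With the replicate block Dnaja4 was at −0.07 and Hspb8 at −0.07.

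In cKO against Hetero, 31 of 66 members had a log2 fold change below 0, against 47.5% of all genes, with medians of 0.003 for members and 0.01 for all genes. The number called was 0 members and 0% of all genes (edgeR, 321 genes at an unadjusted p under 0.05), and DESeq2 and limma-voom also called 0 members. Dnajc12, a DnaJ protein known in humans to assist the aromatic amino acid hydroxylases, was the 1 member with an unadjusted p under 0.05, and it was higher. The background was 1.74% of all genes, 0.975% higher and 0.764% lower. It had 7.21, 5.48, 6.54 and 6.56 CPM in cKO libraries 1 to 4, 4.80 and 4.90 CPM in Hetero libraries 1 and 2, and 5.63, 5.45, 5.82 and 6.94 CPM in the libraries labelled Loxp 1 to 4. Every cKO library lay above both Hetero libraries, and so did every Loxp library. The log2 fold change was 0.41 (SE 0.172, 95% interval 0.04 to 0.78, edgeR unadjusted p = 0.0325, adjusted p = 0.9999). It was 0.40 without Hetero 1, 0.43 without Hetero 2, 0.35 without cKO 1, 0.40 without cKO 3 and 0.40 without cKO 4. The edgeR unadjusted p in these fits ran from 0.0557 to 0.12, and it was 0.0148 without cKO 2. Groups did not overlap for 4 members higher in cKO (Dnajb1, Dnajb2, Dnajb13 and Dnajc12) and 1 lower (Dnajc2), where 9.43% of all genes did so, 4.9% higher and 4.54% lower. Dnajb13 ran at 0.473 to 1.08 CPM in cKO, 0.225 to 0.46 CPM in Hetero and 0.385 to 0.622 CPM in Loxp, from 5 to 25 counts per library, with a log2 fold change of 1.07 (95% interval −0.02 to 2.17). It was 1.65 without Hetero 1 (edgeR unadjusted p = 0.0418) and 0.64 without Hetero 2 (edgeR unadjusted p = 0.344).

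Single libraries stood at the extremes for many members. Loxp 1 had the highest CPM of 22 of the 66 tested members, including 8 of the 11 heat-inducible ones, and cKO 2 had the lowest CPM of 24. The median deviation of the members from their own 10-library mean was −0.112 (log2) in cKO 2 and 0.121 in Loxp 1. cKO 2 was also the highest library for astrocyte markers, at a summed 1343 CPM against 965 to 1152 CPM in the other 9 libraries, and the lowest for oligodendrocyte markers, at 5955 CPM against 6408 to 10572.5 CPM. Its microglia markers summed to 277 CPM against 207 to 236 CPM elsewhere, and its interneuron markers to 649 CPM against 664 to 989.6 CPM. Mitochondrial genes took 3.58% of counts in cKO 2, 3.68% in Loxp 2 and 2.80% to 3.198% in the other 8 libraries. Loxp 2 was also next to cKO 2 for astrocyte markers (1152 CPM) and interneuron markers (664 CPM). The part of these values in the member values was not tested. Dnajc21, a DnaJ protein of ribosome assembly in humans, showed the spread, with 22.5, 13.2, 23.8 and 26.96 CPM in cKO libraries 1 to 4, 26.2 and 25.5 CPM in Hetero libraries 1 and 2, and 26.97, 22.6, 25.6 and 28.2 CPM in the libraries labelled Loxp 1 to 4. cKO 2 was the lowest for it by a wide margin. The median biological coefficient of variation was 11.0% for the tested members and 14.2% for all genes tested, at median levels of 5.71 and 3.79 log2 CPM.

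**Figure D4:**
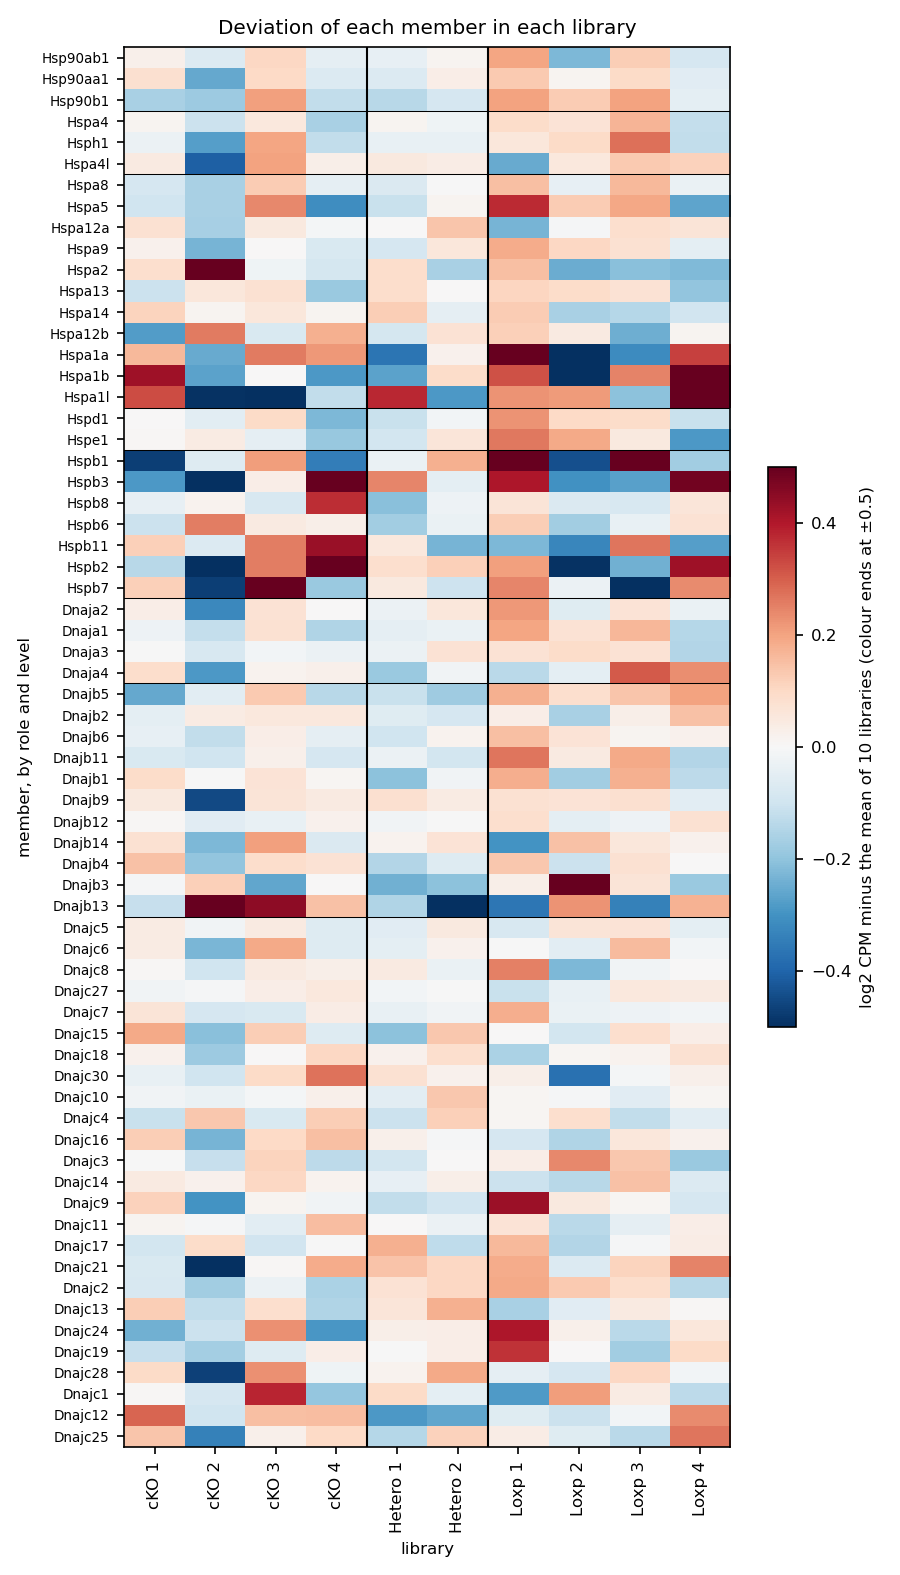
Deviation of the 66 tested members (rows, by role and level) in each library (columns, cKO then Hetero then Loxp), as log2 CPM minus the mean of the 10 libraries, with colours ending at ±0.5. Loxp 1 is mostly red and cKO 2 mostly blue, and Hspa5 and Hsp90b1 are blue in cKO 1, 2 and 4 and, faintly for Hsp90b1, in Loxp 4.

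Partner genes outside the family also had medians close to 0. Values of all partner genes below are from the reported fit alone and were not examined with single libraries left out. Of 37 co-chaperones and regulators, 22 had a log2 fold change below 0 in cKO against Loxp (median −0.03) and 24 in Hetero against Loxp (median −0.03), against 49.9% and 51.8% of all genes. At an unadjusted p under 0.05 there were 0 of 37 in cKO against Loxp, against 2.53% of all genes. There was 1 of 37 in Hetero against Loxp and 1 of 37 in cKO against Hetero, against 2.54% and 1.74% of all genes. Both of these comparisons use the same Hetero libraries. The gene in both was Bag3, which couples Hsp70 to small heat shock proteins in autophagy. Bag3 averaged 7.41 CPM in cKO and 5.18 CPM in Hetero, with a log2 fold change of 0.52 (SE 0.177, edgeR unadjusted p = 0.0114, adjusted p = 0.9999). Against the Loxp mean of 7.29 CPM, the log2 fold change in Hetero was −0.50 (SE 0.177, edgeR unadjusted p = 0.0147, adjusted p = 0.9998). Stub1 (CHIP), a ubiquitin ligase on Hsp70, was at −0.13 in cKO against Loxp, and Fkbp4, an Hsp90 co-chaperone of steroid receptors, at −0.12.

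All 8 subunits of the cytosolic chaperonin CCT were below 0 in cKO against Loxp (median −0.08) and in Hetero against Loxp (median −0.08), against 49.9% and 51.8% of all genes. Both comparisons use the same Loxp libraries. At an unadjusted p under 0.05 there was 1 of 8 in cKO against Loxp and 0 of 8 in Hetero against Loxp. The shares of all genes were 2.53% and 2.54%. Tcp1 averaged 92.7 CPM in cKO and 106 CPM in Loxp (log2 fold change −0.20, SE 0.0775, edgeR unadjusted p = 0.0232, adjusted p = 0.9998). Of 16 unfolded protein response genes, 14 were below 0 in cKO against Loxp (median −0.11) and 13 in Hetero against Loxp (median −0.10). The shares of all genes were again 49.9% and 51.8%. At an unadjusted p under 0.05 there were 0 of the 16 in either comparison, against 2.53% and 2.54% of all genes. Atf4, the factor translated when eIF2α is phosphorylated, averaged 74.1 CPM in cKO and 84.9 CPM in Loxp, with a log2 fold change of −0.20 (SE 0.0916, edgeR unadjusted p = 0.0518). In cKO against Hetero, 20 of 37 co-chaperones, 6 of 8 CCT subunits and 9 of 16 unfolded protein response genes were below 0, where 47.5% of all genes were.

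Counts of some members may hold reads of other genes. In GENCODE M21, 11 members matched a transcript of another gene at 95% identity or more across 50% or more of the length, including Hspa8 (6 such transcripts), Hspd1, Hspe1, Hspb1 and the Hspa1a and Hspa1b pair. Exons of 27 members overlapped those of another gene, 24 of them on the opposite strand, such as Hspd1 and Hspe1, and the sources used here do not say whether counting used strand.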

How the data were processed

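RNA of mouse S1BF was sequenced in 10 libraries (4 cKO, 2 Hetero, 4 Loxp), grouped by their labels. The authors deposited read counts per gene, and FPKM per gene and library. Per the submitters' processing notes, counting used featureCounts 1.5.0-p3 and the build was mm10. The aligner, the annotation and the strand setting were not given in the sources used here. Totals were 19332990 to 26086337 counts per library. The authors' own test columns were not used here.

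Counts were tested with edgeR 4.0.16 in R 4.3.3 (TMM, filterByExpr, glmQLFit, glmQLFTest), with all 10 libraries in 1 fit and p-values adjusted over all 18455 tested genes. The common biological coefficient of variation was 14.9%. CPM used TMM-scaled totals, and log2 CPM a prior count of 2. Intervals are 95%. The procedure was tested on simulated data. The alternatives were DESeq2 1.42.0, limma-voom (limma 3.58.1), other size factors, filters and sample sets, Hspa1a and Hspa1b summed, the replicate number as a block, and each library left out in turn. Loci come from GENCODE M21, transcript copies from blastn 2.17.0 and promoters from RefSeq GRCm38.p6.

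The members, gene lists, tests and the rule for naming genes were chosen with earlier results of these data known. Named are the heat-inducible, ER, mitochondrial and vesicle members, members with an unadjusted p under 0.05, the smallest p of each role, the 3 highest and the 3 lowest tested by FPKM, and up to 3 genes of each outside list. Dnajc21, Dnajc9, Dnajc13, Dnajb3, Dnajb2 and those of the 12 members with a library set apart that this rule does not name were chosen after their values were seen.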

Additional observations from a re-analysis of the deposited data

Results flagged for a closer look

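For 12 of the 132 groups of 4 libraries examined (66 members in cKO and in Loxp), 1 library stood apart, in that its gap to the nearest other library exceeded 0.829 of the group's range. Chance gives this in about 1 in 20 groups. In cKO, replicate 3 was high for Hsp90b1, at 203.6 CPM against 156 to 162 CPM in the other 3, and for Dnajb11, at 67.2 CPM against 61.8 to 62.7 CPM. Replicate 2 was low for Dnajb9, at 24.1 CPM against 33.99 to 34.4 CPM, and for Dnajc16, at 60.4 CPM against 76.1 to 78.8 CPM. Replicate 1 was low for Dnajb2, at 96.8 CPM against 103 to 104 CPM. In Loxp, replicate 1 was high for Dnajc7, at 134.8 CPM against 116 to 118 CPM, and for Hspa2, at 55.0 CPM against 41.7 to 42.9 CPM. The library labelled Loxp 4 was low for Dnaja3, at 53.0 CPM against 61.6 to 62.5 CPM, for Hspa13, at 31.1 CPM against 37.5 to 38.4 CPM, and for Dnajb9, at 31.7 CPM against 34.5 to 34.8 CPM. Replicate 2 was low for Dnajc30, at 18.6 CPM against 23.9 to 24.6 CPM, and replicate 3 was high for Hspb11, at 4.17 CPM against 2.73 to 2.94 CPM.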

How the results depend on the processing

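The number of members called was 0 under each alternative run. Over all genes, the number called in cKO against Loxp was 0 in the reported fit, 32 without the low-count filter, 2 by DESeq2, 1 with the replicate block and 0 to 1 with each library left out (1 without cKO 2). In Hetero against Loxp it was 0, 68 without the filter, 17 by DESeq2, 1 with the replicate block and 0 to 15 with each library left out (15 without Hetero 1, which leaves Hetero 2 alone). In cKO against Hetero it was 0, 39 without the filter, 3 by DESeq2 and 0 to 14 with each library left out (14 without Hetero 1). A lone Hetero library is assumed to vary like the other groups. Members below 0 in cKO against Hetero numbered 20 to 41 with each library left out (20 without cKO 2, 41 without cKO 3), against 31. Sign changes were followed only for members with an unadjusted p under 0.05 or the smallest p of their role in a comparison. Small fold changes of other members may also change sign. Among those followed, the sign changed for Hspe1 in cKO against Hetero. Its log2 fold change was 0.0892 with the replicate block, 0.0471 without Hetero 2 and 0.0109 without cKO 4 (−0.104 to 0.0471 with each library left out). The sign also changed for Hsp90b1 there without cKO 3 (−0.0451 to 0.0903 with each library left out), and the cause was not tested. The median of the members ran from −0.06 to 0.01 in cKO against Loxp and from −0.07 to −0.02 in Hetero against Loxp with each library left out.

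Libraries with the same number in cKO and Loxp deviated together with correlations of 0.0952, 0.199, 0.0419 and 0.322 across genes. Each of the 4 correlated best with its own number. Hetero 1 had correlations of −0.0257 with Loxp 1 and 0.023 with cKO 1. Hetero 2 had −0.00815 with Loxp 2 and −0.0151 with cKO 2. What the number stands for is not said in the labels, and whether libraries of the same number are paired was not tested. The reported fit leaves the number out. With the replicate block, 4 members (Dnajb5, Hsp90b1, Hspa2 and Dnajc21) had an unadjusted p under 0.05 in cKO against Loxp, 0 in Hetero against Loxp and 1 (Dnajc21, log2 fold change −0.46) in cKO against Hetero, where 645, 591 and 532 of 18455 genes did. Dnajc12 was then at 0.34 in cKO against Hetero (edgeR unadjusted p = 0.0895). Depth limits the lowest members most, such as Hspb7, whose 95% interval in cKO against Loxp was −0.75 to 1.04.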
